A study of Mus musculus with 24 samples.

Results

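The genes described here are the 10 contractile and calcium-handling genes that mark fast-twitch skeletal muscle fibers: *Myh2*, *Myh4*, *Myl1*, *Mylpf*, *Tnnt3*, *Tnni2*, *Tnnc2*, *Atp2a1*, *Pvalb* and *Actn3*. They were taken by name from the 21368 genes that the arrays name, with every probe whose accession belongs to them, which came to 14 of 55681 probes. Of these genes, 6 had 1 probe, and *Myl1*, *Mylpf*, *Tnnt3* and *Pvalb* had a pair each. Skeletal muscle, heart, brain and liver were taken from 3 wild-type (WT) male mice and 3 male mice with a *Rap1* knockin (KI), and each tissue of a mouse has 1 array. The labels call the knockin mice mutant, and the study gives the mice of its array comparison as homozygous (KI/KI). The knockin, made with CRISPR/Cas9 and backcrossed to C57BL6 mice (C57BL/6N in the methods of the study), replaces 1 amino acid of RAP1, a protein of the telomere complex, so that it no longer binds its partner TRF2, and a probe level therefore does not check the genotype label. Age was 5 months for WT1 and KI1, and 2 months for WT2, WT3, KI2 and KI3. The labels do not say which muscle was taken, and the study calls its WT controls littermates without saying which of these mice shared a litter. The 1-color Agilent arrays give a fluorescence intensity for each probe, and levels here are log2 ratios of that intensity to the 75th percentile of the same array, where 0 equals the percentile.

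A sarcomere shortens when myosin heads pull on actin filaments. In fast fibers the heads belong to the type 2 heavy chains, *Myh2* (2A), *Myh1* (2X) and *Myh4* (2B), with *Myl1* and *Mylpf* as the essential and regulatory light chains. Troponin, built from *Tnnt3*, *Tnni2* and *Tnnc2* in fast fibers, opens the actin filament when calcium binds. SERCA1 (*Atp2a1*) returns the calcium to the sarcoplasmic reticulum, parvalbumin (*Pvalb*) buffers it in the cytosol, and alpha-actinin-3 (*Actn3*) anchors actin at the Z disc. Slow fibers use another gene for most of these parts, and share many of them with the heart. Parvalbumin is also a protein of fast-spiking interneurons and of Purkinje cells in the brain.

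In the gene table, *Myh1* lies between *Myh2* and *Myh4* on chromosome 11, and *Lsp1* lies between *Tnni2* and *Tnnt3* on chromosome 7. The RefSeq promoter table (GRCm38.p6) matched 7 of the 10 genes, with 8 promoters, since *Pvalb* has 2. *Myh2* and *Myh4* are shown because they are near neighbors whose levels spread very differently over the muscle samples. *Myl1* and *Tnnc2* are shown because *Myl1* differed least between muscle and heart, and *Tnnc2* followed the other 9 genes most closely over the 24 arrays. Each sequence is the 250 bases before the annotated start, 5′ to 3′ on the strand of the gene. Capitals mark the longest run of bases that the *Myh2* and *Myh4* windows share, and in the other two every E-box (CANNTG).
Myh2, chr11:67170777-67171026, plus strand: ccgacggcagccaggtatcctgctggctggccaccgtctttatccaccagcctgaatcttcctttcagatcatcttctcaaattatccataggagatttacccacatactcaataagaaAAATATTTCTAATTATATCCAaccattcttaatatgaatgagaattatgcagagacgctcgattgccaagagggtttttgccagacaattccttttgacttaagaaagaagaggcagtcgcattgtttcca
Myh4, chr11:67237562-67237811, plus strand: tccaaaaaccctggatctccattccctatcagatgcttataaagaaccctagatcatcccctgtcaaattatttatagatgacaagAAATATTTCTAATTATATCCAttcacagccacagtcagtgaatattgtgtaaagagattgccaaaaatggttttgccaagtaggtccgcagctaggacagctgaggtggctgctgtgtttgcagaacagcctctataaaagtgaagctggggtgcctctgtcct
Myl1, chr1:66945057-66945306, minus strand: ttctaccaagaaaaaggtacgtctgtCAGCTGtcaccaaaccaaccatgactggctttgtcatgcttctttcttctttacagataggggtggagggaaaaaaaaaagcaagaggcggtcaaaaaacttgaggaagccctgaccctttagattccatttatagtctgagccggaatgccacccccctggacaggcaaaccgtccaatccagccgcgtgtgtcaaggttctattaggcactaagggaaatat
Tnnc2, chr2:164779735-164779984, minus strand: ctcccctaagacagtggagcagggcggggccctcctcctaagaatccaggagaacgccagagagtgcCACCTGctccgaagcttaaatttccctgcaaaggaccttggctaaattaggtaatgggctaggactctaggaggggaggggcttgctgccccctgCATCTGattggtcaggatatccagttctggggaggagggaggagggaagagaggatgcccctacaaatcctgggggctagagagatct
The shared run of *Myh2* and *Myh4* has 21 bases and begins 131 bases before the start of *Myh2* and 164 before that of *Myh4*. In the other 27 pairs of promoters of these genes, the longest shared run had 7 to 11 bases. An E-box, the motif read by MyoD and its relatives, was found on either strand in 6 of the 8 windows, against 66.2% of 32851 promoters of the same length. TATAAA was in 2 of the 8 (12.4% of all promoters) and CATTCC, the MCAT motif, in 2 (12.6%). The MEF2 motif was in the *Myh4* window and in 1 of the *Pvalb* windows (2.92% of all), and the CArG box was in the *Myh4* window (1.47% of all). In *Myh4*, 1 of 3 TATAAA matches overlaps the MEF2 match. These are matches of letters within the window and say nothing of binding.

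The 75th percentile of the intensities was 470.7 to 529.2 on the muscle arrays, and 56.5% to 61.8% of their probes were well above background, the flag of the scanner software. Over all 24 arrays that share ran from 56.5% to 72.7%, and no spot was saturated. All muscle arrays lay on 1 slide. The muscle samples carried skeletal muscle RNA: all 14 genes of a list of skeletal fiber markers were well above background on all 6 arrays. In other respects the 6 samples differed. The summed linear level of 4 red blood cell genes was 184 to 325 in WT and 396 to 597 in KI muscle. That of 8 neutrophil genes was 1.59 to 3.88 in WT and 3.48 to 96.1 in KI muscle, with the highest in KI1, and that of 9 fat cell genes was 195 to 1070 in WT and 518 to 1572 in KI muscle, with the highest in KI2. KI3 muscle had 11 and KI1 muscle 10 of 12 neuron and glia markers above background, where KI2 muscle had 6 and WT muscle 6 to 7. Their part in the results below was not tested. In whole tissue, fewer cells of a type and less RNA per cell cannot be told apart.

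In muscle, 9 of the 10 genes varied less across the 6 mice than *Myh2* did. All 10 were well above background on all 6 muscle arrays, with signals of 6267 to 517456 below a saturation value of 776675. The range over the 6 arrays was under 1 log2 unit for those 9 genes, from 0.15 (*Tnnt3*) to 0.99 (*Mylpf*). Their SDs over the 6 arrays ran from 0.05 to 0.36, and 8 of the 10 SDs were below the median SD of all probes tested in muscle, 0.32. *Mylpf*, the dimmest of the 9 with signals of 6267 to 12585, had the SD of 0.36, above that median. The SDs were not set against those of probes of like brightness. *Myh2* had an SD of 1.71, which 1.20% of the tested probes exceeded.

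The heavy chains show the contrast. *Myh2* had a level of 4.20 in WT1, 7.21 in WT2 and 8.65 in WT3, and of 8.84 in KI1, 7.19 in KI2 and 8.16 in KI3. The WT1 sample lay 3.00 log2 units below the next lowest, a 7.98-fold gap, and the whole range was 25.0-fold. Its neighbor *Myh4*, the 2B heavy chain, had levels of 9.24, 9.25 and 9.21 in WT1 to WT3 and of 9.13, 8.95 and 9.27 in KI1 to KI3, a range of 1.25-fold. *Myh1*, the 2X heavy chain and not among the 10, was again lowest in WT1, at 7.12, and lay between 8.15 and 8.99 in the other 5 mice, highest in KI1. *Myh2* and *Myh1* thus had the same 3 highest samples, KI1, WT3 and KI3, and the same lowest. The heavy chain genes are close relatives, and how far each probe takes up the transcripts of the others was not tested.

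The light chains were steadier than *Myh2*. *Myl1* had levels of 9.20, 9.18 and 9.16 in WT1 to WT3 and of 9.08, 8.91 and 9.62 in KI1 to KI3. The WT samples lay within those of the KI mice. *Mylpf* had levels of 3.82, 4.17 and 3.89 in WT1 to WT3 and of 3.75, 3.65 and 4.64 in KI1 to KI3, again with KI3 highest and KI2 lowest.

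The 3 troponin subunits had the narrowest spread of the protein complexes here. *Tnnt3*, which ties troponin to tropomyosin, had levels of 9.71, 9.72 and 9.75 in WT1 to WT3 and of 9.61, 9.64 and 9.69 in KI1 to KI3, so that every KI sample lay below every WT sample by a small margin. *Tnni2*, the inhibitory subunit, ranged from 9.62 (KI2) to 10.00 (KI3). *Tnnc2*, the calcium-binding subunit, ranged from 9.53 (KI2) to 9.86 (KI3).

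Among the calcium-handling and Z disc genes, *Atp2a1* had levels of 8.0, 8.31 and 7.63 in WT1 to WT3 and of 7.65, 7.67 and 7.72 in KI1 to KI3, and the groups overlapped. *Pvalb* had levels of 10.02, 9.94 and 9.91 in WT1 to WT3 and of 9.80, 9.34 and 9.95 in KI1 to KI3, with KI2 lowest. *Actn3* had levels of 9.70, 9.67 and 9.43 in WT1 to WT3 and of 9.22, 9.27 and 9.38 in KI1 to KI3, so that every KI sample lay below every WT sample. KI2 was the lowest of the 6 samples for 6 of the 10 genes, and KI3 the highest for 5.

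**Figure D1:**
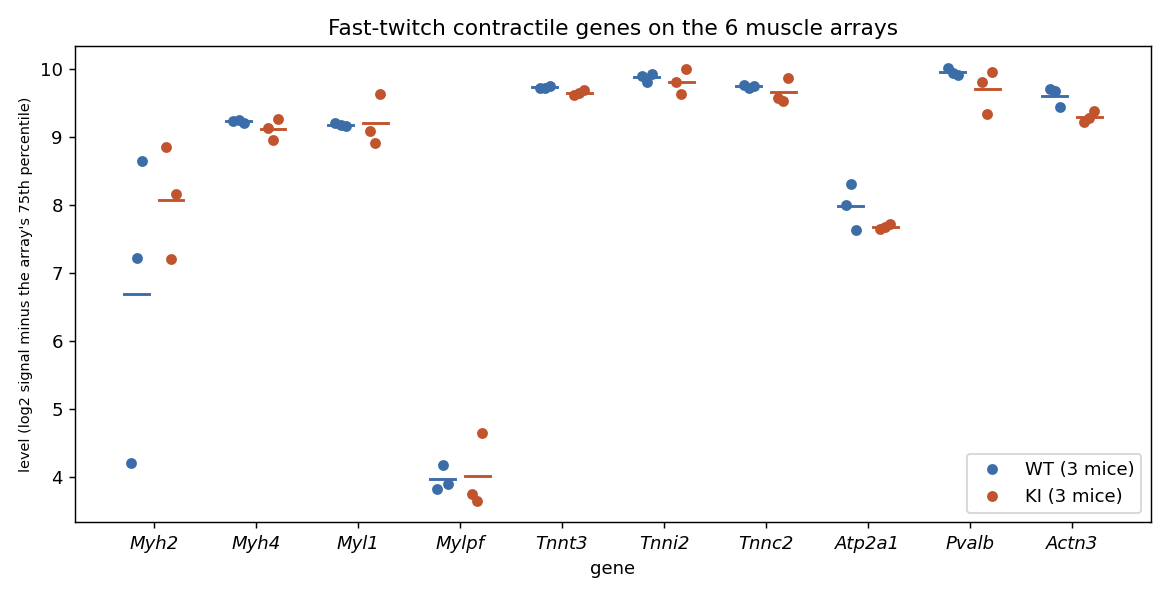
Level (log2 intensity minus the 75th percentile of the array) of the probe of each fast-twitch gene on the 6 muscle arrays, with blue points for the 3 WT and orange points for the 3 KI mice and a line at each mean. *Myh2* is spread from 4.20 to 8.84, whereas each of the other 9 genes stays within 1 log2 unit; brightness differs between probes, so heights of different genes are not comparable.

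The first question is whether the knockin altered these genes in muscle. None of the 10 passed the adjusted threshold of 0.05 with limma (adjusted p from 0.939 to 0.987), and none had an unadjusted p under 0.05. Of all 32382 probes tested in muscle, 0 passed (0%), and 802 (2.48%) had an unadjusted p under 0.05. *Actn3* was 9.60 ± 0.15 in WT and 9.29 ± 0.08 in KI muscle (SD, n = 3), a log2 difference of -0.31 with a standard error (SE) of 0.19 and a 95% interval from -0.75 to 0.13. *Tnnt3* was 9.73 ± 0.02 in WT and 9.65 ± 0.04 in KI muscle (SD, n = 3), a difference of -0.08 with an interval from -0.49 to 0.32. These are the 2 of 10 genes whose groups did not overlap, beside 6.44% of all tested probes. Under quantile normalization, the difference of *Tnnt3* turned to 0.04.

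*Myh2* had a mean of 6.69 ± 2.27 in WT and of 8.07 ± 0.83 in KI muscle (SD, n = 3). The difference was 1.38 with an SE of 1.06, an interval from -1.13 to 3.89 and a limma adjusted p of 0.939. It was 4.65 between the 5-month-old mice, 1 of each genotype, and -0.25 between the means of the 2-month-old mice, 2 of each. Without WT1 it was 0.14, and without WT3 it was 2.36.

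The differences of the other 7 genes lay between -0.30 (*Atp2a1*) and 0.05 (*Mylpf*), and none of their 95% intervals reached beyond -0.84 or 0.76. That of *Pvalb* was -0.26 with an interval from -0.78 to 0.26, that of *Myh4* was -0.12 with an interval from -0.55 to 0.32, and that of *Tnni2* was -0.07 with an interval from -0.52 to 0.38. Over all 10 genes, 3 were higher and 7 lower in KI muscle with a median difference of -0.09, beside -0.07 over all tested probes. With 1 mouse left out, the median ran from -0.03 without KI2, with 6 of the 10 lower, to -0.19 without KI3, with 9 of the 10 lower. The second probes of *Myl1*, *Mylpf*, *Pvalb* and *Tnnt3* gave differences of -0.28, -0.22, -0.10 and -0.10, so that the probes of *Myl1* and those of *Mylpf* had opposite signs. None of these 4 passed (limma adjusted p from 0.939 to 0.941).

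The spread of *Myh2* had a counterpart in the slow-fiber genes, not in the other fast-twitch genes. For each array, the deviation of each gene from the mean of the 3 WT arrays was taken, and the median over a list. The median of the 10 fast-twitch genes was 0.02, 0.01 and -0.02 in WT1 to WT3 and -0.14, -0.28 and 0.07 in KI1 to KI3. The median of 14 slow-fiber genes was -0.88, 0.13 and 0.72 in WT1 to WT3 and 3.34, -0.40 and 1.28 in KI1 to KI3. The 3 samples highest in the slow-fiber genes, KI1, KI3 and WT3, are the 3 that were highest in *Myh2*, and WT1 was lowest in both.

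Among the brightest slow-fiber genes, *Mb*, the oxygen store myoglobin, had levels of 7.27, 8.16 and 8.56 in WT1 to WT3 and of 9.15, 7.67 and 8.46 in KI1 to KI3. *Myl3*, the slow and ventricular light chain, ranged from -0.04 (KI2) to 8.21 (KI1), which is 304.0-fold. *Tnnt1*, the slow troponin T, ranged from 0.60 (WT1) to 6.32 (KI1), and *Actn2*, the alpha-actinin of all fibers, from 4.27 (WT1) to 6.66 (KI1). *Tpm3*, a tropomyosin with other forms in many cells, went another way and was highest in KI2, at 5.24. *Myh7*, the slow heavy chain, ranged from -1.54 (WT2) to 6.26 (KI1).

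Of these 14 genes, 13 were higher in KI muscle with a median difference of 1.39, beside -0.07 over all probes, and 0 passed the adjusted threshold (0 had an unadjusted p under 0.05). Without KI1, 12 were higher and the median was 0.56. Without WT1, the median was 0.82, and without KI2, 2.38.

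**Figure D2:**
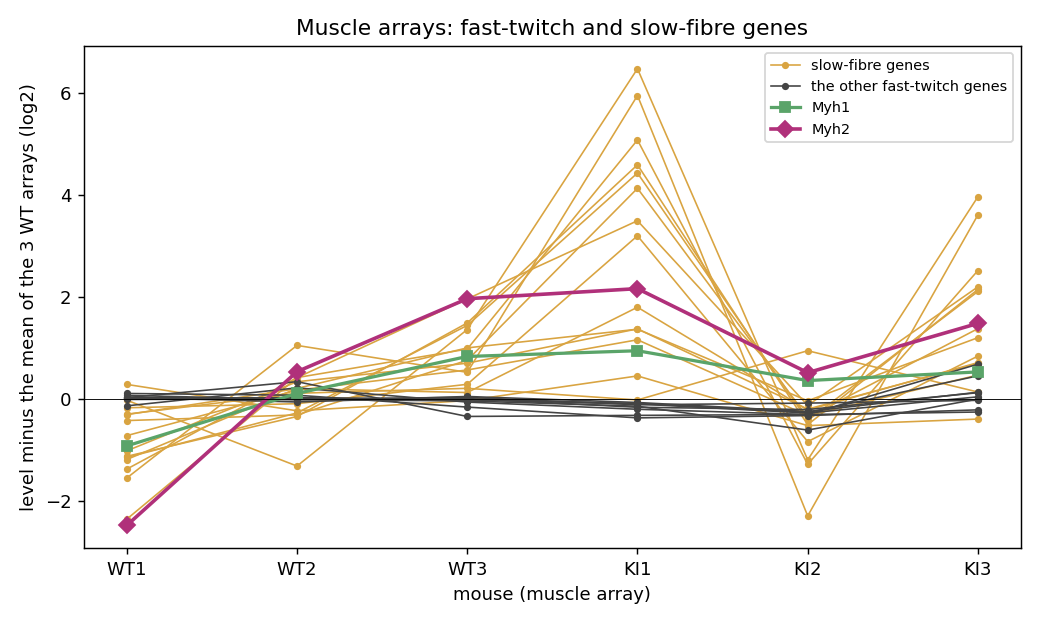
Deviation of each gene from the mean of the 3 WT muscle arrays (log2, vertical axis) in each mouse (horizontal axis), for the 14 slow-fiber genes (yellow), *Myh1* (green), *Myh2* (magenta) and the other 9 fast-twitch genes (dark gray). The gray lines stay within 1 log2 unit of 0 in every mouse, whereas *Myh2*, *Myh1* and most slow-fiber genes are low in WT1 and high in KI1; the lines join mice for legibility and do not show an order.

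Of the genes that work beside these in fast fibers, a list of 23 on the arrays (glycolysis, excitation-contraction coupling and structural proteins), 0 passed in KI against WT muscle and 0 had an unadjusted p under 0.05. The median difference was -0.26, beside -0.07 over all tested probes, with 20 of 23 lower in KI muscle. The brightest were *Eno3* (-0.14, SE 0.19), *Pfkm* (-0.26, SE 0.19), *Ldha* (-0.13, SE 0.19), *Ckm* (-0.35, SE 0.20) and *Pgam2* (-0.14, SE 0.18), the muscle forms of glycolytic enzymes with lactate dehydrogenase A and creatine kinase. Their median deviation was lowest in KI2, at -0.35, as for the 10 genes. Of 19 regulators of the fast fiber program, 0 passed. Their median difference was -0.24, or -0.14 without KI2, beside -0.07 and -0.06 over all tested probes. *Myod1*, the myogenic factor, had the 1 unadjusted p under 0.05 among them (difference -0.87, SE 0.34, limma adjusted p = 0.939). The brightest regulators were *Eya1* (-0.53), *Nfix* (-0.30), *Vgll2* (0.10), *Tbx15* (-0.50) and *Tead1* (-0.62). The summed level of the 14 skeletal fiber markers was 4154 to 4404 in WT and 3604 to 4446 in KI muscle. Of 8 contractile and muscle genes of the embryonic and newborn stages, 0 passed and 4 were higher and 4 lower.

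All 10 genes marked the muscle against every other tissue. In a limma fit of all 24 arrays, each of the 10 was higher in muscle than in the heart, in the brain and in the liver at an adjusted p under 0.05, and every muscle array lay above every array of the other 3 tissues for each gene's probe. The background is large, since 22.4% of 42463 tested probes were higher in muscle than in the heart, 41.4% than in the brain and 36.3% than in the liver. The median log2 difference of the 10 was 11.58 against the heart, 11.94 against the brain and 12.92 against the liver, beside 0.07, 0.30 and 0.06 over all tested probes. These medians stayed the same with the genes that were not measured in the other tissue set to their lower bound. Of the probes called between muscle and heart, 51.6% were higher in muscle, and 73.7% with normexp background correction. That share went from 59.1% to 75.6% against the brain and from 51.0% to 68.4% against the liver, and the median over all probes became 0.33, 0.64 and 0.43 in the 3 contrasts. Quantile normalization brought that median to 0.16 against the brain.

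Against the heart, the difference separated the genes into a group of very large and a group of moderate values. *Myh4* was well above background on 2 of 6 heart arrays, with levels of -3.75 in KI2 and -4.70 in KI3, against 8.95 to 9.27 in muscle. The limma adjusted p of 2.03e-15 belongs to its fitted difference of 15.26, which also uses heart values not well above background. *Tnnt3* differed by 13.22 (SE 0.40), *Actn3* by 12.71 (SE 0.58), *Myh2* by 12.36 (SE 0.63), *Pvalb* by 11.81 (SE 0.47) and *Tnnc2* by 11.36 (SE 0.18), or 2622-fold. *Mylpf* was not well above background on any heart array and was at least 838-fold higher in muscle. The dimmest probe that each heart array still measured above background was the floor for this bound. The limma adjusted p of 7.36e-17 belongs to the fitted difference of 11.04, which uses the heart values not well above background, and not to the bound. The moderate values were those of *Tnni2*, 7.65 (SE 0.30), *Atp2a1*, 5.07 (SE 0.21, 33.7-fold) and *Myl1*, 3.90 (SE 0.37, 14.9-fold).

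The brain gave another order. *Pvalb* differed least from muscle there, by 5.53 (SE 0.47, 46.2-fold), and *Tnnt3* most, by 14.78 (SE 0.40). *Mylpf* was not well above background on any brain array and was at least 1230-fold higher in muscle. The limma adjusted p of 1.77e-17 is again that of the fitted difference and not of the bound. In the liver, no array measured *Myh4* or *Myl1* well above background. Muscle was at least 42200-fold higher for *Myh4* and at least 40300-fold higher for *Myl1*. The limma adjusted p of the fitted differences, which use liver values not well above background, was 4.23e-17 for *Myh4* and 2.22e-18 for *Myl1*. *Actn3* was above background on 1 of 6 liver arrays, KI1, at -2.28, where the other 5 lay at -6.73 or lower.

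The fast-fiber partners shared the direction, less strongly. Of the 23, 22 were higher in muscle than in the heart at an adjusted p under 0.05 (limma), with a median log2 difference of 4.61, and 1 was lower, *Sln*, the sarcolipin gene of the atria. Of the 14 slow-fiber genes, 2 were higher and 10 lower in muscle, with a median of -3.93. Among all tested probes, 22.4% were higher and 21% lower in muscle than in the heart.

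Probes of the same gene did not always give the same tissue pattern. For *Myl1*, the probe used here had a mean level of 5.30 in the heart and 9.19 in muscle, and the probe of another transcript of the gene had means of 0.44 and 7.88, so that the difference was 3.90 with the first and 7.45 (SE 0.28) with the second. The 2 *Pvalb* probes carry the same accession. One was well above background on 6 of 6 liver arrays with a mean level of -1.12, and the other on 0 of 6, where muscle was at least 34200-fold higher. The second *Mylpf* probe, designed to a predicted transcript, differed between muscle and heart by 1.94 (SE 0.14), far less than the first. The *Tnnt3* probes differed little, with 13.22 and 12.66 (SE 0.58).

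**Figure D3:**
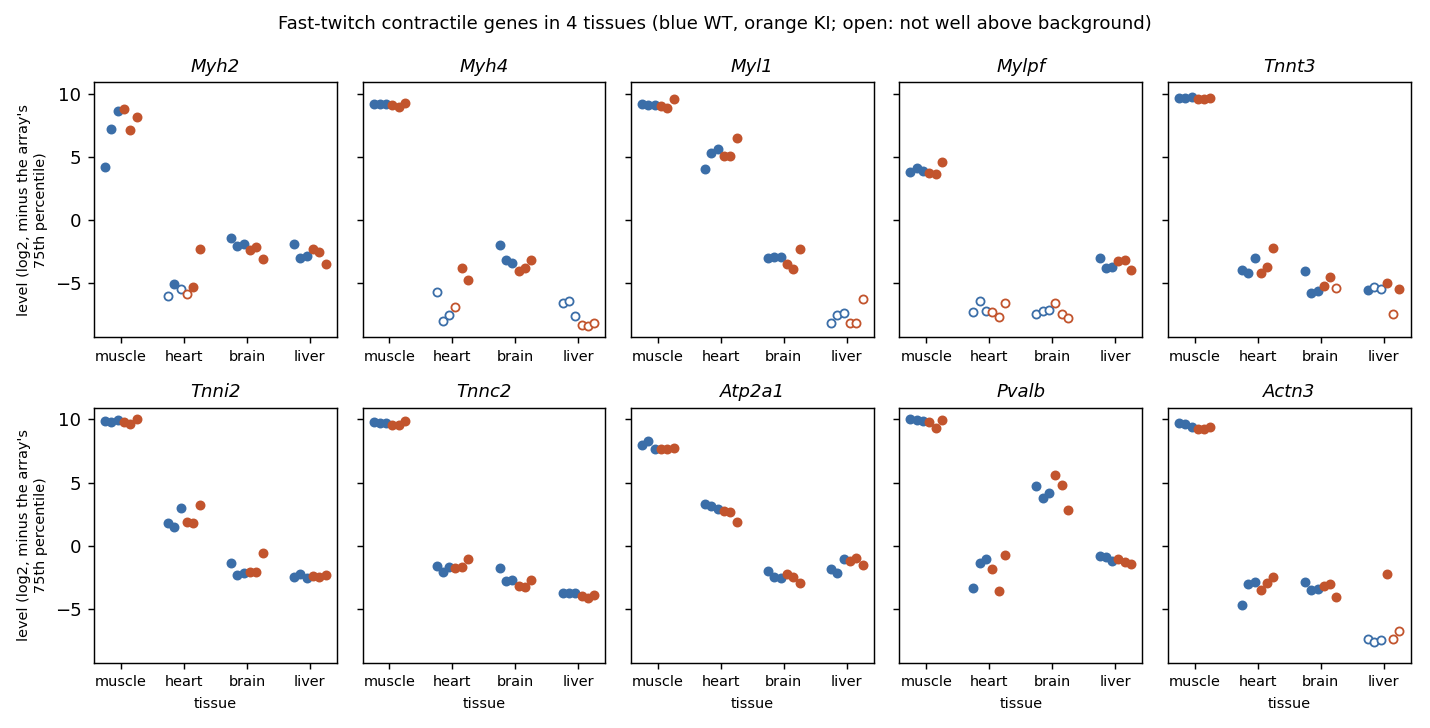
Level of the probe of each fast-twitch gene (log2 intensity minus the 75th percentile of the array) on the 6 arrays of each tissue, in the order WT1 to WT3 (blue) and KI1 to KI3 (orange), with open points where the probe was not well above background. Muscle is highest for each gene, *Myl1*, *Tnni2* and *Atp2a1* also lie at 1.44 or higher on all 6 heart arrays, and *Pvalb* lies between 2.79 and 5.57 in the brain.

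The heart arrays were less even than the muscle arrays, and 1 sample stood out. Of the 10 genes, 8 could be tested in the heart, since *Myh4* and *Mylpf* were above background on fewer than 3 arrays. KI3 had the highest level of 7 of the 8, all but *Atp2a1*. WT3 had the next highest level of *Myl1*, *Tnni2*, *Tnnt3*, *Pvalb* and *Actn3*, but not of *Myh2* and *Tnnc2*. The hearts of WT3 and KI3 lay on the slide that also held all muscle arrays, and the other hearts lay on another slide. The part of the slide in these levels was not tested. *Myh2* had levels of -5.98, -5.05 and -5.42 in WT1 to WT3 and of -5.86, -5.32 and -2.26 in KI1 to KI3, and was not well above background in WT1, WT3 and KI1. *Myl1*, whose product is also a light chain of the developing heart, had levels of 4.05, 5.36 and 5.64 in WT1 to WT3 and of 5.11, 5.08 and 6.53 in KI1 to KI3. *Tnni2* had levels of 1.77, 1.44 and 2.96 in WT1 to WT3 and of 1.90, 1.82 and 3.23 in KI1 to KI3. The heart of KI3 also had the highest *Myh1*, at -3.31, where the other hearts lay between -7.50 and -6.37.

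*Atp2a1* behaved in the opposite way. It had levels of 3.29, 3.16 and 2.86 in WT1 to WT3 and of 2.71, 2.63 and 1.89 in KI1 to KI3, so that every KI heart lay below every WT heart. The means were 3.1 ± 0.22 in WT and 2.41 ± 0.45 in KI hearts (SD, n = 3), a difference of -0.70 with an SE of 0.28 and a 95% interval from -1.37 to -0.02 (limma adjusted p = 0.646, unadjusted under 0.05). On the first heart slide, with 2 mice of each genotype, the difference was -0.56, and on the other, with WT3 and KI3, it was -0.97. Between the 5-month-old mice it was -0.58, and between the 2-month-old mice -0.75. Without KI3 it was -0.44. Of the 34848 probes tested in the heart, 0 passed the adjusted threshold (0%), 2617 (7.51%) had an unadjusted p under 0.05, and 14.7% had groups that did not overlap, beside 1 of 8 of the fast-twitch genes by either measure. Over the 8 genes, 6 were higher in KI hearts with a median difference of 0.31, beside -0.02 over all tested probes. Without KI3, 3 were higher and the median was -0.15, without WT1 it was 0.10, and without WT3 it was 0.71.

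Markers of fat cells and some of heart muscle cells differed between these hearts as well. *Adipoq*, the fat cell hormone, had levels of -4.23, 0.72 and -0.15 in WT1 to WT3 and of 4.05, 0.42 and 4.86 in KI1 to KI3, and the summed level of 9 fat cell genes was 267 to 291 in WT and 318 to 804 in KI hearts, with the highest in KI3. *Sln*, an atrial gene and a muscle regulator of SERCA, was at -2.60 in WT1 and between 6.58 and 8.32 in the other hearts. *Myl7*, the atrial light chain, was at -2.41 in WT1 and between 5.03 and 8.33 in the others. Both are from a list of 12 cardiomyocyte markers, and other genes of that list went another way. *Nppb* was highest in WT1, at 6.45. The summed level of the 12 was 1937 to 3356 in WT and 1994 to 2520 in KI hearts. Of the 14 slow-fiber genes, 12 were lower in KI hearts with a median difference of -0.28 (-0.11 without WT3, with 9 lower, -0.16 without KI1 and -0.42 without WT2), 0 passed, and 4 had an unadjusted p under 0.05 (limma adjusted p = 0.646 for each). These were *Myh7* (-1.81, SE 0.48), *Tnnc1*, the slow and cardiac troponin C (-0.78, SE 0.24), *Actn2* (-0.70, SE 0.25) and *Casq2*, the calcium store protein of heart and slow fibers (-0.67, SE 0.25). Of the 18 regulators tested in the heart, 0 passed, *Tbx15* had a difference of -1.74 (SE 0.59) and *Eya4* one of 0.96 (SE 0.38), each with a limma adjusted p of 0.646. *Mybpc2*, the fast myosin-binding protein C, had a difference of -1.81 (SE 0.64, limma adjusted p = 0.646), and was the 1 of 21 fast-fiber partners with an unadjusted p under 0.05 in the heart. The summed level of the 14 skeletal fiber markers was 356 to 502 in WT and 279 to 398 in KI hearts, with 12 to 13 of them well above background on each array. The part of these markers in the levels of the fast-twitch genes was not tested.

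**Figure D4:**
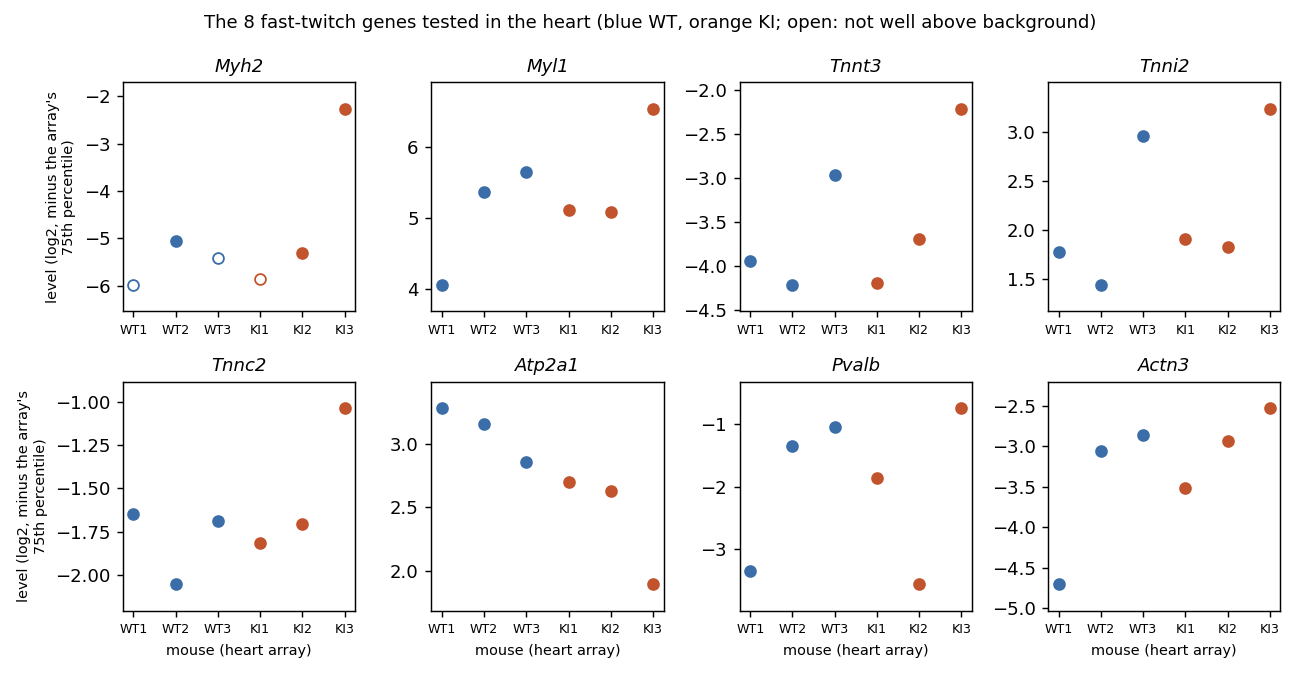
Level (log2 intensity minus the 75th percentile of the array) of the 8 fast-twitch genes tested in the heart in each mouse, with blue points for WT, orange points for KI and open points where the probe was not well above background. KI3 is highest in every panel but that of *Atp2a1*, where it is lowest at 1.89, and the vertical axes differ between panels.

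The effect of the knockin could be compared between muscle and heart directly. No probe of 42463 had a difference between the effects that passed the adjusted threshold (0%), 1307 (3.08%) had an unadjusted p under 0.05, and 1 of the 10 genes did. That gene was *Myh4*, with a difference of -2.06 (SE 0.90, limma adjusted p = 1), and it was well above background on 2 of the 6 heart arrays. Its difference therefore rests on heart values not well above background in WT1, WT2, WT3 and KI1. *Mylpf* was not measured above background in any heart. For the other 8 genes the difference lay between -0.86 (*Actn3*) and 0.39 (*Atp2a1*). That of *Myh2* was 0.37 (SE 1.25), and turned to -0.62 without WT1 and to -0.70 without KI1.

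In the brain, *Pvalb* was the exception among the 10. It had levels of 4.70, 3.75 and 4.16 in WT1 to WT3 and of 5.57, 4.81 and 2.79 in KI1 to KI3, and the second probe ranged from 1.57 to 3.67. The means were 4.20 ± 0.48 in WT and 4.39 ± 1.43 in KI brains (SD, n = 3), and the KI mice held both the highest and the lowest value. The difference was 0.19 with an SE of 0.71 and an interval from -1.55 to 1.92, and without KI1 it was -0.40. The 5-month-old mice shared a slide and differed by 0.87, and the 2-month-old mice shared the other and differed by -0.15. Of 37836 probes tested in the brain, 0 passed (0%) and 992 (2.62%) had an unadjusted p under 0.05. None of the 9 genes tested there, all but *Mylpf*, had an unadjusted p under 0.05. *Myh2* had levels of -1.39, -2.07 and -1.89 in WT1 to WT3 and of -2.39, -2.11 and -3.03 in KI1 to KI3, a difference of -0.73 (SE 0.31, limma adjusted p = 1). It was the 1 of the 9 genes whose groups did not overlap in the brain, beside 7.73% of all tested probes.

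Neuron markers also differed between these brains. A list of 14 genes of GABA neurons and cerebellar neurons had 13 to 14 members well above background on each brain array. Its summed level was 150 to 205 in WT and 108 to 332 in KI brains. The cells that use parvalbumin are among these neurons, but the list also holds genes of other neurons. Its sum is therefore not a measure of the parvalbumin cells alone. KI1 held the highest level of 8 of the 14 and KI3 the lowest of 10, as for *Pvalb*. Of the 14, 0 passed the adjusted threshold in KI against WT brain (limma). For 1, higher in KI brains, the unadjusted p was under 0.05, beside 2.62% of all tested probes. The widest ranges included *Pcp2*, a gene of Purkinje cells, with levels of 4.21, 1.93 and -0.96 in WT1 to WT3 and of 6.36, 5.03 and -1.0 in KI1 to KI3. *Car8*, also of Purkinje cells, ranged from -1.99 (KI3) to 2.36 (KI1). Other genes of the list had another order. *Kcnc2*, a potassium channel of fast-spiking cells, was lowest in KI1 at 1.76 and highest in WT1 at 2.71. *Zic4*, of cerebellar granule cells, was lowest in WT2 at -1.15 and lay at -0.08 in KI3. It lay between -1.15 and -0.99 in WT and between -0.24 and -0.05 in KI brains. Its groups thus did not overlap, as for 7.73% of all tested probes. *Lhx6*, of cortical interneurons, was lowest in KI2 at 4.5, and *Tac1*, a neuropeptide gene, was highest in WT2 at 4.91. These 6 genes were named after their values were seen. The part of the markers in the level of *Pvalb* was not tested.

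**Figure D5:**
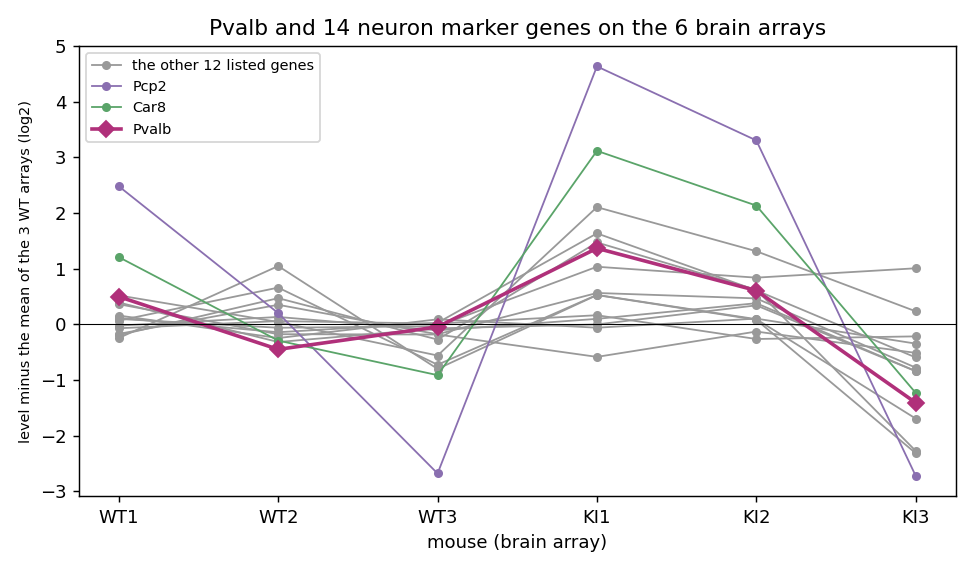
Deviation from the mean of the 3 WT brain arrays (log2, vertical axis) of *Pvalb* (magenta diamonds) and of the 14 listed neuron markers, with *Pcp2* in purple, *Car8* in green and the other 12 in gray, by mouse. KI3 has the lowest level of *Pvalb* and of 10 of the 14 markers, and KI1 the highest of *Pvalb* and of 8; lines join mice for legibility and do not show an order.

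In the liver, 7 of the 10 genes could be tested, all with levels below 0 on every liver array. None had an unadjusted p under 0.05 in KI against WT liver, beside 750 of 35240 probes (2.13%), and 0 probes passed the adjusted threshold (0%).

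Across the 24 arrays, the level of each gene was set against the mean of the other 9. Pearson's r was 0.998 for *Tnnc2*, 0.993 for *Tnnt3*, 0.983 for *Actn3*, 0.960 for *Tnni2* and 0.959 for *Myh4*. It was lower for *Myh2* (0.903), *Atp2a1* (0.894), *Mylpf* (0.852), *Pvalb* (0.816) and *Myl1* (0.764). The 24 arrays share 6 mice and fall into 4 tissues, so these values describe the tissue pattern. The genes outside the group that followed its mean best, of 21300 compared, were *Slc16a3* (0.994), a lactate transporter, *Dupd1* (0.989), a phosphatase, *Cacng6* (0.989), a calcium channel subunit, *Sypl2* (0.986), a protein of the triad membranes, *Lrrc38* (0.985), a subunit of potassium channels, and *Ampd1* (0.984), the AMP deaminase of muscle. *Slc16a3* had a mean level of 7.49 in muscle and of 0.33, 0.09 and -1.64 in the heart, brain and liver. *Ampd1* had a mean of 6.79 in muscle and of -7.60, -8.25 and -7.85 in the heart, brain and liver.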

How the data were processed

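For 1-color Agilent arrays the authors deposited intensities, the processed signals of Feature Extraction 12.0.3.1 after its background subtraction and detrending, which are not yet normalized across arrays. They also deposited a table with a score for each probe, the z-score of its log10 signal within the array, which served as an alternative. The muscle, heart, brain and liver of 6 mice gave 24 arrays. Spots of controls or flagged as outliers were dropped, spots of a probe averaged, and the log2 of the 75th percentile subtracted. Probes were named through their accession and the RefSeq gene names of GRCm38.p6; the array design is older, so gene coordinates are not given, apart from the promoters. Of several probes of a gene, the one brightest in muscle stands for each of the 10 genes, and the brightest over 24 arrays for others. A probe was tested where 3 or more of the 6 arrays of the tissue (of any tissue, in fits of all 24) measured it well above background. Tests were two-sided and made by limma 3.58.1 (R 4.3.3) with Benjamini-Hochberg adjustment over all tested probes, with statmod 1.5.0 for the block fits. Per the labels, RNA of heart and muscle was extracted with a kit for fibrous tissue and that of brain and liver with another, so kit and tissue cannot be told apart in contrasts of muscle with brain or liver. No brain or liver array lay on the slide of the muscle arrays, so slide and tissue cannot be told apart there either. Of the heart arrays, only those of WT3 and KI3 lay on that slide. Genotypes were compared within each tissue on its 6 arrays. Tissues, and the difference of the knockin effect between muscle and heart, were fitted on all 24. The procedures were tested on simulated data. P-values rest on the spread between mice within a group, 3 in each, and the number of arrays limits the precision. In fits of all 24 arrays, all groups of tissue and genotype share the same spread for a probe. Limma also moves the spread of each probe toward that of all tested probes. For a very even gene such as *Tnnt3* in muscle (SDs 0.02 and 0.04, SE 0.17), the interval is therefore wider than its own values alone would give.

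The 10 genes and the gene lists were chosen with earlier results of these data known. Of the other lists, the 5 brightest genes and those with an unadjusted p under 0.05 in muscle or heart are named; *Myh1* and further markers were named after their values were seen. The mouse was the same animal in all 4 tissues. Deviations of the same mouse in 2 tissues correlated from -0.22 to 0.26 over 36 pairs (median 0.05, 42322 probes), and the consensus correlation was 0.03. WT and KI mice were numbered by animal number and are not pairs. Normexp used median foreground signals.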

Additional observations from a re-analysis of the deposited data

How the results depend on the processing

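Alternatives changed the scaling (quantile), the background correction (normexp), or used the authors' z-scores, no filter on dim probes, a filter on all arrays, trend and robust moderation, array weights, the mean over the probes of a gene, flagged spots kept, each mouse left out and, by comparison, age, slide or replicate number as a block, the mouse as a block, all 24 arrays, or the arrays of 1 genotype. In the 3 tissue contrasts, all 10 genes stayed higher in muscle and past the threshold in every alternative. Outside the z-scores, the smallest log2 difference was 3.15 (*Myl1* against the heart). No alternative brought a fast-twitch gene past the adjusted threshold in KI against WT muscle or heart (lowest adjusted p 0.56 and 0.505). In the brain, the alternatives covered 19 such values, against 180 in muscle and 148 in the heart. The lowest limma adjusted p there was 0.118. With the replicate number as a block, 0 probes passed in muscle, heart, brain and liver, and the differences stayed as they were, since the block is balanced. With the mouse as a replicate block, 9665 probes were higher in muscle than in the heart, against 9527 without it, and it changed no call of the 10 genes.

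Counts over all probes moved by more than 1.5 times in a few cases. Probes higher in muscle than in the heart numbered 18200 with normexp, 5997 on the WT arrays and 5854 on the KI arrays, and those lower numbered 5243 on the KI arrays, against 8928 on all. In the brain, array weights gave 3435 probes for the knockin, against 0. The difference of the knockin effect between muscle and heart gave 0 to 1 probes with each mouse left out (1 without WT1).

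Small genotype differences turned sign. In muscle, these were *Tnnt3* with quantile normalization (0.0426), *Myl1* with normexp (-0.065), array weights (-0.0216) and the mean over probes (-0.12), and *Mylpf* with the mean over probes (-0.0839). With each mouse left out in turn, muscle *Myl1* ran from -0.18 to 0.18, *Mylpf* from -0.26 to 0.23 and *Tnni2* from -0.165 to 0.024. In the heart, *Pvalb* turned to 0.12 with array weights and to 0.0705 with the mean over probes. With each mouse left out, heart *Pvalb* ran from -0.86 to 0.61, *Actn3* from -0.0357 to 0.89, *Tnni2* from -0.19 to 0.71 and *Tnnt3* from -0.23 to 0.76, and brain *Pvalb* from -0.40 to 0.99. The difference of the effects between muscle and heart turned to 0.0728 for *Pvalb* with quantile normalization. With each mouse left out it ran from -0.70 to 1.43 for *Myh2*, from -0.69 to 0.63 for *Pvalb*, from -0.82 to 0.13 for *Tnnt3* and from -0.76 to 0.0297 for *Tnni2*. The cause was not tested. The 3 mice a group and the single probes of the dim genes in the heart, brain and liver limit what these arrays can resolve.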
